A study of Mus musculus with 39 samples.

Results

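The comparison described here is a difference between 2 changes over time in cultured mouse microglia, the resident macrophages of the brain. The first is the change from 0 min to 60 and 150 min, the mean of both times, in donors, cells loaded with alpha-synuclein. The second is the same change in acceptors, the cells that shared their culture. The donor change minus the acceptor change is called the interaction. A negative value means that a gene rose less, or fell more, in donors than in acceptors. It rests on 18 of the 39 libraries of the series, 9 per population and 3 at each of the times, chosen by their titles and not by any measured value.

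All cells were primary microglia from neonatal C57BL/6 mice, grown in flasks that each pooled 2 brains and shaken off a layer of astrocytes. Donors were plated at typically 250000 cells per well and given 1 µM alpha-synuclein carrying the dye Atto-488 for 14 h. Acceptors were plated at typically 6000000 cells per flask, were stained with a violet cell dye for 15 min and received no alpha-synuclein. The letters TW in the names of both populations are not defined in the labels. Donors and acceptors were kept together without direct contact for 60 or 150 min, or taken at 0 min. No donors or acceptors kept alone for those times are among the samples, so time in co-culture and time since handling cannot be told apart. Alpha-synuclein, plating density, vessel and dye differ together between the populations. The labels do not tell whether the 3 libraries of a group are separate cultures or animals, so the p-values measure the spread between libraries, which may be technical.

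Alpha-synuclein is the neuronal protein that forms aggregates in Parkinson's disease, and microglia take up such aggregates and respond with inflammatory genes. Within minutes to hours of a stimulus, macrophages induce immediate early transcription factors of the FOS, JUN, EGR and NR4A families, and genes under cyclic AMP and hypoxia control such as Vegfa. An interaction design asks which genes respond to the same interval differently in the 2 populations, whatever their levels were at the start.

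Of 13034 genes tested, 2 were called (0.0153%), Vegfa and Cytip, both with a negative interaction. The test was edgeR's quasi-likelihood F test at a Benjamini-Hochberg adjusted p under 0.05. No gene had a called positive interaction with edgeR or limma voom, and DESeq2 called 1, Uhrf1bp1. An unadjusted p under 0.05 was reached by 315 genes (2.42%), of which 157 (1.2%) had a positive and 158 (1.21%) a negative value. The median interaction over all genes was 0.00 on the log2 scale. Among the 10019 genes with a mean of at least 2 CPM, the median standard error of an interaction was 0.39 on the log2 scale. A difference of that size in a typical gene was not detectable here. Larger ones could go uncalled as well, as did Plekhm1, described below, at several times its SE.

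The promoters of both called genes are shown with that of Btg2, the one among the 10 negative interactions of lowest p that held a motif searched for. They are RefSeq sequences of GRCm38.p6, each of the 250 bases before an annotated start and all on the minus strand: chr17:46032378-46032627 for Vegfa, chr2:58160123-58160372 for Cytip and chr1:134079156-134079405 for Btg2. The Vegfa sequence is the one at the outer end of the gene, of 2 entries. The Cytip window lies within the span of the gene given below, so the bases before its outer end were not searched. Capitals mark a match to a motif.
Vegfa: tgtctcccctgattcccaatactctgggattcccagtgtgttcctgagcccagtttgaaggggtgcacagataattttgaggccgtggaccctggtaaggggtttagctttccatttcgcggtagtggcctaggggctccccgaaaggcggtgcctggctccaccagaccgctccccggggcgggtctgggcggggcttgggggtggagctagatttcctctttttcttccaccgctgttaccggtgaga
Cytip: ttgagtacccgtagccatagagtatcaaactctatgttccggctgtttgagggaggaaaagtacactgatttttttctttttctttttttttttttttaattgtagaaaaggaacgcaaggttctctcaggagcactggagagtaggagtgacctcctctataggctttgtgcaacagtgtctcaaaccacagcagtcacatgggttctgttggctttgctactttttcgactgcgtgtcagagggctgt
Btg2: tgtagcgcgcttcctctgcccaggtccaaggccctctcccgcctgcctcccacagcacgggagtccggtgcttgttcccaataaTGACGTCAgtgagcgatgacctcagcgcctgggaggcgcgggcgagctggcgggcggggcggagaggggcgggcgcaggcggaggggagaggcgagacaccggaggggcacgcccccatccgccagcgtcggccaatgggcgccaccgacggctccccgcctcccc
The motifs searched on both strands were TGANTCA, the AP-1 site, TGACGTCA, the cyclic AMP response element, TACGTG, a hypoxia element, and an NF-kB motif and a serum response element of 10 letters each. Among the 10 negative genes, 9 had an entry, with 15 windows, and the exception was Thbs1. In these windows the cyclic AMP element of Btg2, which starts 166 bases before its start site, was the single match. Among the 10 positive interactions of lowest p, 7 genes had an entry, with 9 windows. Of these windows, 1 held the cyclic AMP element (Slc25a25), 1 the AP-1 site and 1 the NF-kB motif (both Sbsn). The element is therefore not particular to the negative genes. Over all 32851 windows of the same length, 1.55% held that element, 6.75% the AP-1 site, 1.41% the NF-kB motif, 0.0609% the serum response element and 2.72% the hypoxia element. A match is a description of these letters and not a measured site. A window without a match may still hold a site with other letters, and bases further out were not searched.

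Vegfa (chromosome 17, 46016993 to 46032369, GRCm38) encodes vascular endothelial growth factor A, a secreted factor that acts on vessel walls and is induced by low oxygen. Levels are in CPM, read counts divided by a library's TMM-scaled total and put on a common scale. Donors had 23.4, 15.2 and 37.7 CPM at 0 min, 22, 14.7 and 16.4 CPM at 60 min, and 21.2, 21.2 and 13.3 CPM at 150 min. Acceptors had 6.1, 3.55 and 4.54 CPM at 0 min, 22.6, 33.8 and 18.4 CPM at 60 min, and 19.5, 23.8 and 22 CPM at 150 min. The later donor libraries overlapped those at 0 min, and all 6 later acceptor libraries lay above the 3 at 0 min. The log2 change was −0.49 ± 0.30 (SE) in donors, which was not called (adjusted p = 1.00), and 2.29 ± 0.35 in acceptors (adjusted p = 0.00284), or 4.91-fold higher than at 0 min. The interaction was −2.78 ± 0.45 on the log2 scale (adjusted p = 0.00878). The donor level at 0 min was above that of acceptors by 2.42 ± 0.38 log2 units (adjusted p = 1.76e-05), and at 60 and 150 min the difference of −0.36 ± 0.25 was not called (adjusted p = 0.269). The call was lost without acceptors at 0 min replicate 2 (adjusted p = 0.0760) or 3 (0.0960), without donors at 0 min replicate 3 (0.104), and with limma voom (0.0510).

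Cytip (chromosome 2, 58129137 to 58195532) encodes the cytohesin-interacting protein, which binds cytohesins, activators of ARF GTPases that take part in integrin adhesion of leukocytes. Donors had 23, 22.5 and 21.9 CPM at 0 min, 17, 16 and 35.6 CPM at 60 min, and 20.6, 12.2 and 9.25 CPM at 150 min. Acceptors had 4.61, 11.6 and 5.77 CPM at 0 min, 38.4, 55.8 and 51.8 CPM at 60 min, and 58.5, 98.7 and 97.8 CPM at 150 min. Every later acceptor library was above every donor library of all 3 times, while every acceptor library at 0 min was below the donors at 0 min. The log2 change was −0.33 ± 0.44 in donors, not called, and 3.13 ± 0.52 in acceptors (adjusted p = 0.00534), 8.78-fold higher than at 0 min. The interaction was −3.46 ± 0.65 (adjusted p = 0.0434). Donors were higher than acceptors at 0 min by 1.62 ± 0.53 log2 units (adjusted p = 0.0244) and lower at 60 and 150 min, with a difference of −1.85 ± 0.37 (adjusted p = 1.38e-04). The call lies close to the threshold: it was lost without any one of 15 of the 18 libraries, with adjusted p from 0.0512 to 0.505. It was kept without acceptors at 150 min replicate 1, donors at 150 min replicate 1 or donors at 60 min replicate 3. DESeq2 gave Cytip an adjusted p of 2.34e-04 and limma voom one of 0.00134.

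**Figure D1:**
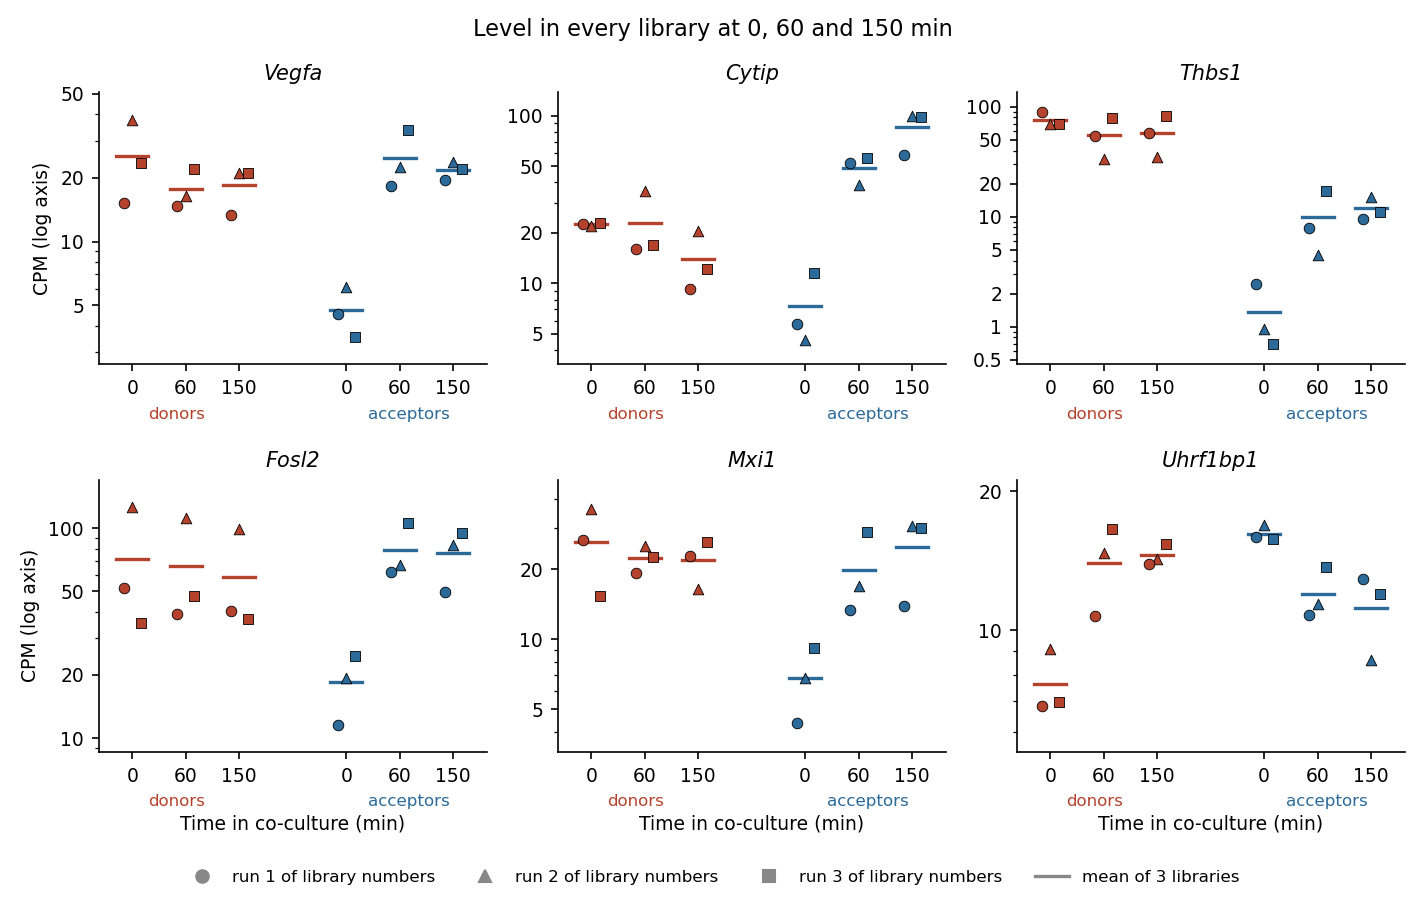
Level of 6 genes in each of the 18 libraries, in CPM on a log axis, for donors (left) and acceptors (right) at 0, 60 and 150 min; symbols give the run of consecutive library numbers and bars the mean of 3 libraries. For Vegfa, acceptors at 60 and 150 min reach the range of donors, 13.3 to 37.7 CPM, and for Cytip they lie above it, at 38.4 to 98.7 CPM.

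Taken alone, the donor change brought 0 calls with edgeR, DESeq2 and limma voom, with 366 genes at an unadjusted p under 0.05 in edgeR. The acceptor change brought 2 calls (0.0153%), Vegfa and Cytip, both higher, with 256 genes at an unadjusted p under 0.05. These are the same genes as in the interaction, whose acceptor part is this change. Library numbers form 3 runs with 1 library of every group, and the labels do not say what a run is. With the run as a replicate block, edgeR called 9 genes in the acceptor change (0.0691%), all higher: Vegfa, Cytip, Fosl2, Thbs1, Got1, Il1b, Mxi1, Rims3 and Stk17b. Of these, Got1 and Rims3 were chosen after their values were seen. The share of reads from Rn45s, the ribosomal RNA precursor, varied over the same times. In donors it was 3.73% to 13.4% at 0 min, 3.30% to 7.66% at 60 min and 3.17% to 10.6% at 150 min. In acceptors it was at least 9.10% in all 3 libraries at 0 min, 5.85% to 11.0% at 60 min and 4.39% to 8.03% at 150 min. Its part in the results was not tested. In bulk RNA, fewer cells of a type and less RNA per cell cannot be told apart.

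**Figure D2:**
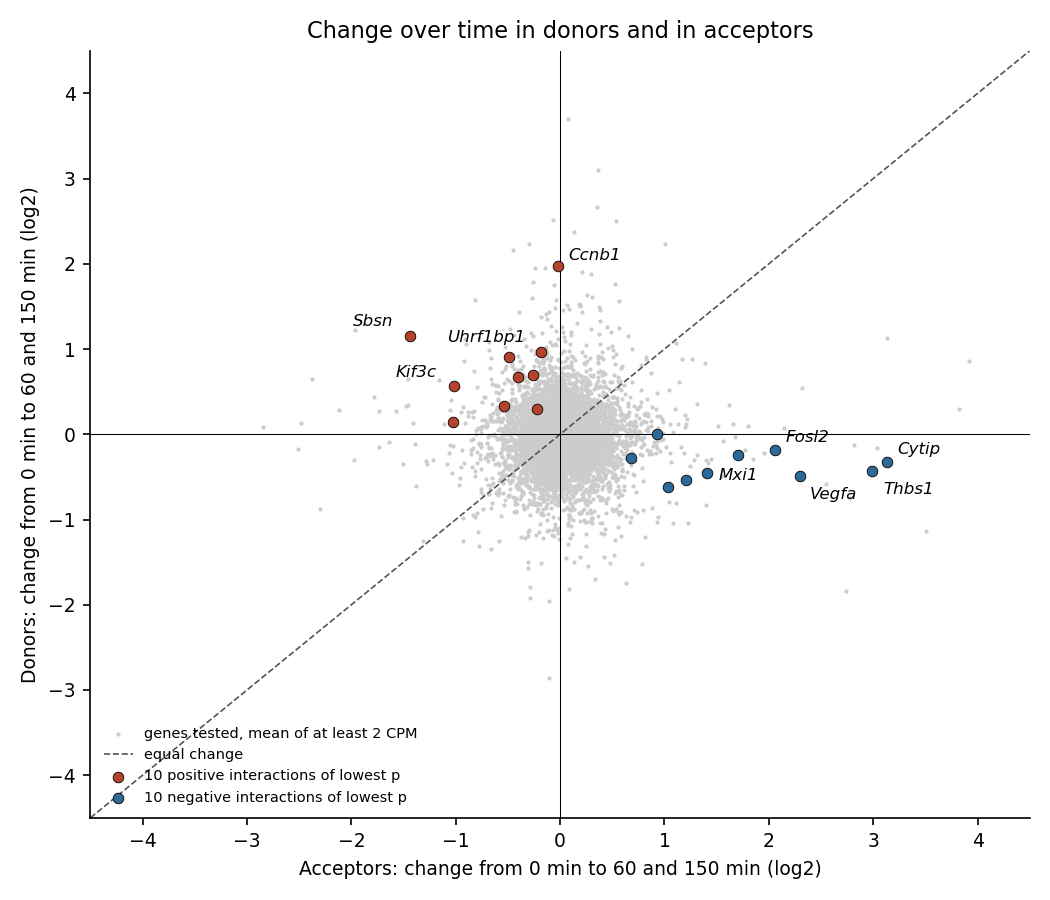
Change from 0 min to 60 and 150 min on the log2 scale, donors on the vertical and acceptors on the horizontal axis, for 10019 genes with a mean of at least 2 CPM (1 lies outside the axes); coloured points are the 10 positive and 10 negative interactions of lowest p. The negative ones lie to the right, with acceptor changes up to 3.13 and donor changes between −0.62 and 0.00.

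The next 8 negative interactions by p, among genes of at least 2 CPM, were Thbs1, Fosl2, Mxi1, Ccnc, Stk17b, Btg2, Fos and Pde4b. None was called by edgeR without a block, DESeq2 or limma voom. With the run of library numbers as a replicate block, edgeR called 4 genes in the interaction (0.0307%), Vegfa, Cytip, Thbs1 (−3.49, adjusted p = 0.0286) and Fosl2 (−2.26, adjusted p = 0.0499). Thbs1 (chromosome 2, 118111876 to 118127133) encodes thrombospondin 1, a matrix protein that restrains vessel growth. Donors had 69.9, 89.1 and 70 CPM at 0 min, 78.5, 54.5 and 33.8 at 60 min, and 34.6, 81.6 and 57.9 at 150 min. Acceptors had 0.948, 0.695 and 2.47 CPM at 0 min, 4.48, 17.1 and 7.97 at 60 min, and 9.54, 15.2 and 11.1 at 150 min. All later acceptor libraries were above those at 0 min and below every donor library. The interaction of Thbs1 was −3.42 ± 0.75 (adjusted p = 0.213), beside an acceptor change of 2.99 (adjusted p = 0.0846) and a donor change of −0.43. Donors exceeded acceptors in Thbs1 by 5.81 log2 units at 0 min (adjusted p = 1.92e-07) and by 2.39 later (adjusted p = 1.62e-05), so the difference remained called at both.

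Fosl2 and Fos encode subunits of the AP-1 transcription factor. Fosl2 (chromosome 5, 32135801 to 32157842) had 35.3, 51.6 and 126 CPM in donors at 0 min, 47.3, 39.1 and 112 at 60 min, and 99, 37.1 and 40.4 at 150 min. In acceptors it had 19.3, 24.6 and 11.6 CPM at 0 min, 67.1, 106 and 62.1 at 60 min, and 49.4, 83.5 and 95.2 at 150 min. All later acceptor libraries lay above those at 0 min and within the range of the donor libraries, and donors held 1 high library at each time. The interaction was −2.24 ± 0.62 (unadjusted p = 8.47e-04, adjusted p = 1.00). Fos had 94, 76.9 and 212 CPM in donors at 0 min and 54.5 to 197 CPM in the 6 later libraries. In acceptors it had 72.1, 81 and 75.9 CPM at 0 min and 129 to 236 CPM later, above all 3 at the start. Its interaction was −1.75 (unadjusted p = 0.00132).

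The remaining members of that group of 10 have varied roles. Pde4b, a phosphodiesterase that degrades cyclic AMP, had an interaction of −1.86, with 44.1 to 127 CPM in later donor libraries against 46 to 155 CPM at 0 min, and 91.9 to 191 CPM in later acceptor libraries against 39.8 to 55.5 CPM at 0 min. Mxi1, a MAX partner that opposes MYC, had −1.94, and acceptors held 13.3 to 30.6 CPM later against 4.37 to 9.19 CPM at 0 min. Ccnc, cyclin C of the Mediator kinase module, had −1.65. Stk17b, a kinase of the death-associated protein family, had −0.93, with donor changes of −0.00 and acceptor changes of 0.93 (adjusted p = 0.0846). Btg2, an antiproliferative factor that recruits mRNA deadenylation, had −0.95, and it was the gene of the 10 in which acceptors exceeded donors at 0 min (adjusted p = 0.0155). In 9 of the 10 negative genes all later acceptor libraries were above the 3 at 0 min, which held for 1.10% of all genes. The genes were chosen on the interaction, so nothing is read from that count.

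The 10 positive interactions of lowest p were Uhrf1bp1, Plekhm1, Kif3c, Slc25a25, Tent5c, Sbsn, Polr3a, Rnf157, Ccnb1 and U2af2, none called by edgeR. Uhrf1bp1 (chromosome 17, 27856441 to 27900041), named for binding UHRF1, had 6.96, 6.82 and 9.1 CPM in donors at 0 min, 16.6, 10.7 and 14.7 at 60 min, and 14.3, 15.4 and 13.9 at 150 min. In acceptors it had 16.9, 15.8 and 15.9 CPM at 0 min, 11.4, 13.7 and 10.8 at 60 min, and 12.9, 8.6 and 12 at 150 min. Both populations separated by time in opposite directions, donors upward and acceptors downward. The interaction was 1.39 ± 0.29 (adjusted p = 0.117 in edgeR and 0.0117 in DESeq2), made of a donor change of 0.91 and an acceptor change of −0.48. Plekhm1, an adaptor for fusion of autophagosomes and endosomes with lysosomes, had 0.86 ± 0.21 (adjusted p = 0.576). Its level was 172 to 236 CPM in later donor libraries against 144 to 175 CPM at 0 min, and 55.7 to 90.9 CPM in later acceptor libraries against 97.8 to 111 CPM at 0 min.

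Kif3c, a kinesin motor subunit, had an interaction of 1.59 ± 0.39 (adjusted p = 0.614). It had 13.5 to 19.8 CPM in later donor libraries against 8.32 to 12.6 CPM at 0 min, and 3.14 to 6.74 CPM in later acceptor libraries against 6.8 to 13.5 CPM at 0 min. Ccnb1, the mitotic cyclin B1, had 1.99, with 1.64 to 3.85 CPM in later donor libraries against 0.142 to 0.911 CPM at 0 min. Acceptors had 2.72 to 8.81 CPM of Ccnb1 later against 3.22 to 8.5 CPM at 0 min. Tent5c, a poly(A) polymerase, had 1.17 and Slc25a25, a mitochondrial ATP-magnesium carrier, 1.07. Rnf157, a ubiquitin ligase, had 1.15, Polr3a, the largest subunit of RNA polymerase III, 0.95, and U2af2, a splicing factor, 0.52. Sbsn, an epidermal protein, had 2.59 at 0.0828 to 5.33 CPM. In the positive group all later donor libraries were above the 3 at 0 min in 5 genes, against 0.944% of all genes, and all later acceptor libraries were below in 4, against 0.614%. These genes too were chosen on the interaction, so nothing is read from these counts.

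**Figure D3:**
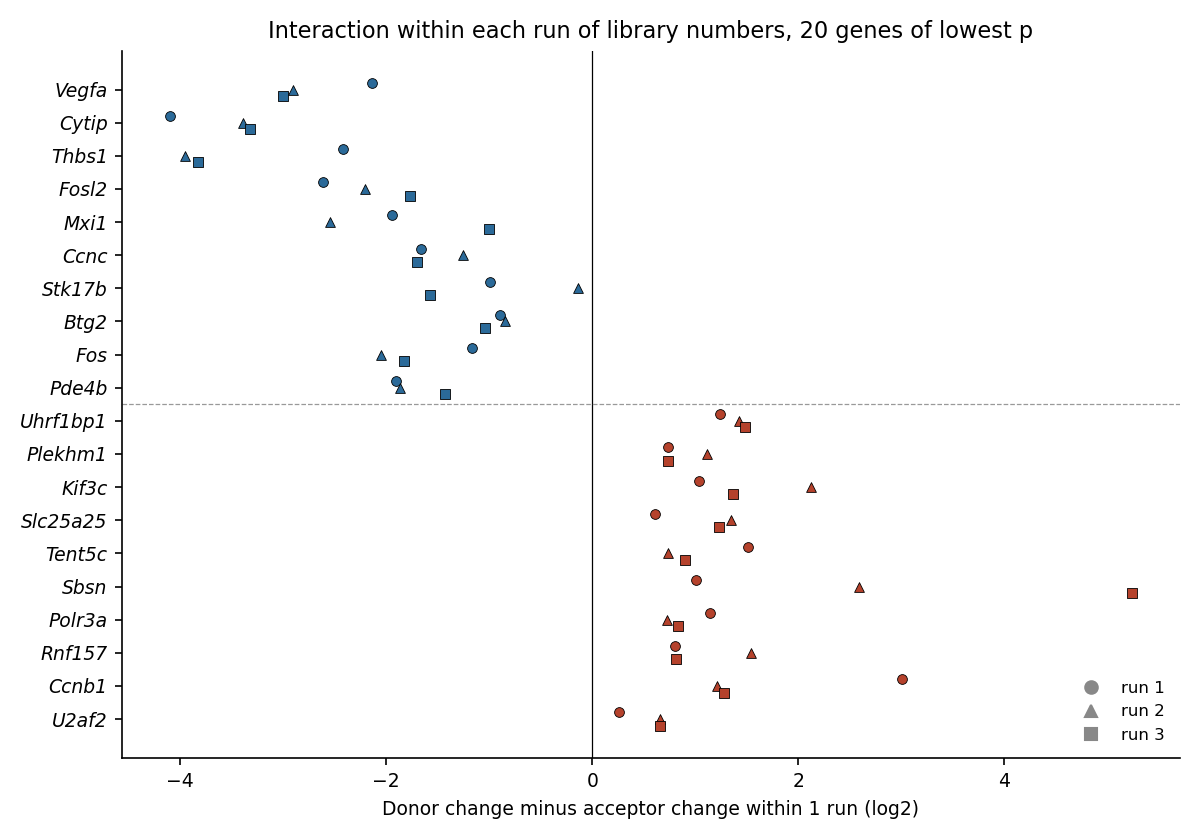
Interaction within each of the 3 runs of consecutive library numbers, which hold 1 library of every group, for the 10 negative (top) and 10 positive (bottom) genes of lowest p; the horizontal axis is the donor change minus the acceptor change in log2 CPM. All 20 genes keep one sign in the 3 runs, with Vegfa at −2.14, −2.91 and −3.00 and Cytip at −4.10, −3.39 and −3.33.

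Within the 3 runs, each of 13 consecutive library numbers in the titles, the interaction of Vegfa was −2.14, −2.91 and −3.00 and that of Cytip −4.10, −3.39 and −3.33. All 10 negative and all 10 positive genes kept their sign in every run, though they were chosen on the mean over the same libraries. The donor libraries of run 2 were above the other 6 at all 3 times for Fosl2 and Il1b, and at 0 and 60 min for Pde4b. For Fosl2 they had 126, 112 and 99 CPM at 0, 60 and 150 min, against 35.3 to 51.6 CPM in the other 6 donor libraries. For Il1b, the cytokine interleukin-1 beta, they had 1830, 2290 and 2200 CPM, against 489 to 820 CPM in the others. For Pde4b they had 155, 127 and 58.6 CPM, against 44.1 to 60.1 CPM in the others, a range that includes the value at 150 min. The run 2 library of donors at 0 min, replicate 3, also held 71.6 CPM of Nr4a2, against 2.57 and 5.68 CPM in the other 2, and 13.4% Rn45s reads, the highest of the 18 libraries. Without this library the interaction of Vegfa was −2.39.

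The same contrast at each single time shares the 0 min libraries, so its values are given side by side. For Vegfa the interaction was −0.41 at 15 min, −0.79 at 30 min, −2.91 ± 0.52 at 60 min (adjusted p = 0.0409), −2.65 ± 0.52 at 150 min (0.0894) and −1.97 at 300 min. For Cytip it was −0.27, −1.69, −2.71, −4.22 ± 0.75 (adjusted p = 0.0364) and −4.40 ± 0.76 (adjusted p = 0.0212) at 15, 30, 60, 150 and 300 min. At 300 min Cytip had 7.17 to 11.2 CPM in donors, below all donor libraries at 0 min, and 51.1 to 76.6 CPM in acceptors. Vegfa had 11 to 23.6 CPM in donors at 300 min and 9.56 to 15.4 CPM in acceptors, between the acceptor levels at 0 and at 60 min. Over all genes, edgeR called 0 at 15 min, 0 at 30 min, 1 at 60 min (0.00767%, Vegfa), 1 at 150 min (Cytip) and 1 at 300 min (Cytip). DESeq2 and limma voom also called 0 at 15 and 30 min, where edgeR gave 235 and 173 genes an unadjusted p under 0.05.

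**Figure D4:**
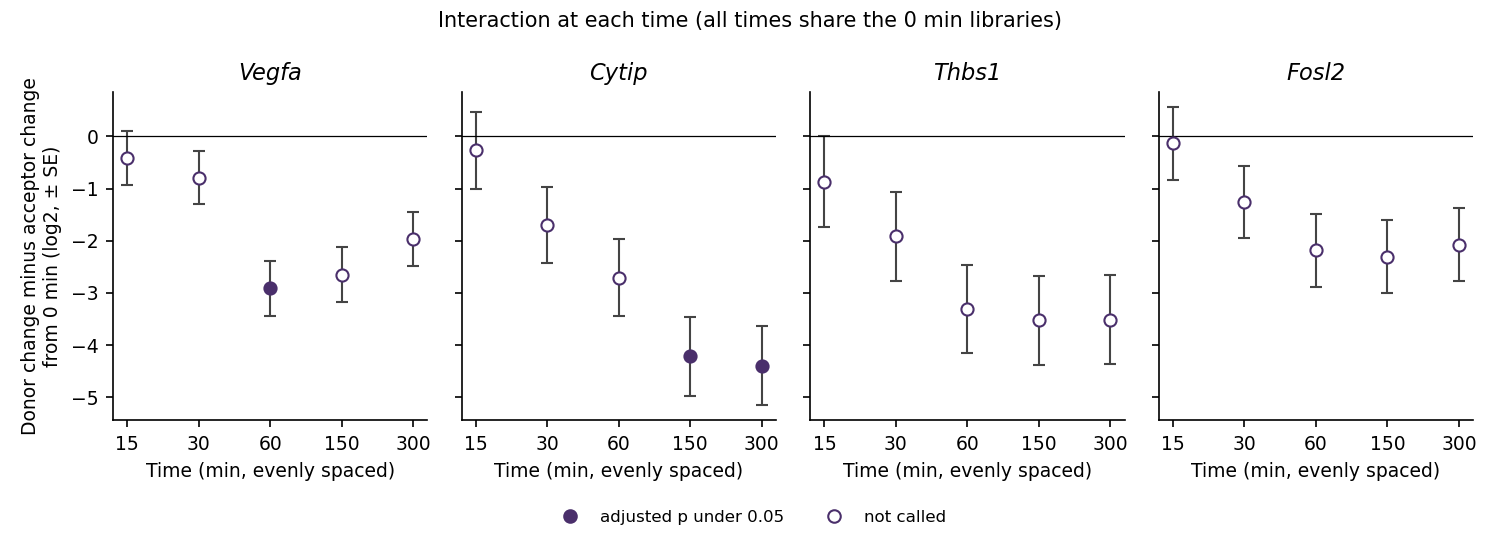
Interaction from 0 min at each of 5 times on the log2 scale, with its SE, for Vegfa, Cytip, Thbs1 and Fosl2; the times are evenly spaced on the axis and filled points have an adjusted p under 0.05. Vegfa is lowest at 60 min, at −2.91, and Cytip at 300 min, at −4.40.

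Contrasts without the 0 min libraries asked whether the population difference moved later. For 150 min minus 60 min no gene was called by edgeR, DESeq2 or limma voom, with 226 genes at an unadjusted p under 0.05 in edgeR. Cytip had the value −1.51 ± 0.72 there (unadjusted p = 0.0431, adjusted p = 1.00) and Vegfa 0.27 ± 0.51. For 300 min minus the mean of 60 and 150 min, 0 genes were called by the 3 tools, and 590 had an unadjusted p under 0.05 in edgeR. Vegfa had 0.81 ± 0.44 and Cytip −0.93 ± 0.63 in that contrast, neither called.

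The 3 control libraries at 0 min, which do not enter the interaction, gave a second baseline for acceptors. No alpha-synuclein dose, violet dye or plating number is recorded for the control. Dye, plating, handling and time may therefore differ together between it and the later acceptors, and cannot be told apart. Vegfa had 3.55 to 6.1 CPM in acceptors at 0 min, and 5.77, 4.66 and 4.75 CPM in the control. Acceptors at 60 and 150 min exceeded the control in Vegfa by 2.20 ± 0.35 log2 units (adjusted p = 0.00287). In Cytip, acceptors at 60 and 150 min were higher by 3.63 ± 0.54 (adjusted p = 0.00130), and the control varied widely, with 0.361, 12.2 and 2.83 CPM. The control library with 12.2 CPM was of run 3, as was the acceptor library at 0 min with 11.6 CPM. edgeR called no gene beyond these 2 genes, Vegfa and Cytip (0.0153%). With the control in place of acceptors at 0 min, the interaction was −2.69 for Vegfa and −3.96 for Cytip, both with an adjusted p of 0.00793.

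The starting and later differences between the populations were broad. Donors and acceptors differed in 2975 genes at 0 min (22.8%), 1576 higher and 1399 lower in donors, and in 5041 genes at 60 and 150 min (38.7%), 2575 higher and 2466 lower. The later contrast has 6 libraries against 6 in place of 3 against 3, so the counts are not comparable. Scaled to total counts, the splits were 879 higher and 2673 lower at 0 min, and 1450 higher and 4451 lower later. Of the 10 negative genes, 7 were called higher in donors at 0 min and 1 lower. At 60 and 150 min 1 was called higher, Thbs1, and 4 lower, Cytip, Btg2, Fos and Pde4b. Of the 10 positive genes, 2 were higher and 4 lower in donors at 0 min, and 5 were higher and 1 lower later. These differences add up to the interaction and are not separate evidence for it.

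Across 38 gene lists, 35 had no called member, and the 3 that did held Vegfa or Cytip. Of the 34 lists with at least 10 tested members, 30 had a median interaction within 0.2 log2 units of 0. The list of cyclic AMP and prostaglandin targets had the lowest median, −0.56 over 26 members, with 21 negative and 5 positive values, beside a median of 0.00 and 6444 negative of 13034 values over all genes. Its median change was −0.22 in donors and 0.31 in acceptors. Besides Vegfa, called lower, members at an unadjusted p under 0.05 were Pde4b, Crem, Sik1, Nr4a1, Nr4a2 and Nr4a3, all negative. Of these only Pde4b falls under the rule for named genes, and the others were chosen after their values were seen. Nr4a2, an orphan nuclear receptor, had 2.13 to 26.4 CPM in later donor libraries against 2.57 to 71.6 CPM at 0 min, and 6.58 to 27 CPM in later acceptor libraries against 1.85 to 2.3 CPM at 0 min. Crem, a cyclic AMP responsive transcription factor, had 25.1 to 51.5 CPM in later donor libraries against 36.7 to 51.1 CPM, and 12.5 to 36.6 CPM in later acceptor libraries against 6.34 to 12.6 CPM.

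The immediate early list had a median of −0.30 over 35 members and 0 calls. Members at an unadjusted p under 0.05 were Fos, Fosb, Fosl2, Junb, Btg2 and the 3 Nr4a genes, all negative, and Egr2, positive at 0.87. In 5 of the 35, all later acceptor libraries were above those at 0 min, beside 1.10% of all genes. All later donor libraries were above or below those at 0 min in 0 of the 35, beside 0.944% above and 0.529% below among all genes. Junb had 329 to 510 CPM in later donor libraries against 376 to 591 CPM at 0 min, and 186 to 404 CPM in later acceptor libraries against 179 to 213 CPM. The TGF-beta response list had a median of −0.37 over 23 members, 16 negative, with 0 calls and 0 members at an unadjusted p under 0.05. JAK-STAT and SOCS genes had a median of −0.17 over 28. Socs3, a feedback inhibitor of cytokine receptors, stood at −2.14 (unadjusted p = 0.00431), with 47.7 to 101 CPM in later donor libraries against 79 to 113 CPM, and 8.67 to 16.9 CPM in later acceptor libraries against 1.39 to 4.4 CPM.

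Glycolysis and hypoxia genes had Vegfa as their 1 called member of 36, beside 0.0153% called of all genes. Their median was 0.11, with 19 positive and 17 negative values. Vegfa, Mxi1 and Hilpda were among the negative ones. Hilpda, a lipid droplet protein induced by hypoxia, had 574 to 1610 CPM in later donor libraries against 628 to 1120 CPM, and 66.4 to 104 CPM in later acceptor libraries against 37.9 to 54.3 CPM. Cytip was the 1 called member of 52 in the list of actin and membrane protrusion genes, beside 0.0153% called of all genes. The median of that list was −0.07. Adora2b, an adenosine receptor that raises cyclic AMP, had −1.54 (unadjusted p = 0.0175), with 5.21 to 11.2 CPM in later acceptor libraries against 2.09 to 3.05 CPM at 0 min. Cholesterol synthesis genes had a median of 0.17 over 22 members with 0 calls, the highest of the lists with at least 10 members after oligodendrocyte markers (0.57 over 12), and all later donor libraries were above those at 0 min in 3 members, beside 0.944% of all genes. Homeostatic and disease-associated microglia genes had medians of −0.13 over 29 and −0.08 over 28 members, and lysosome and autophagy genes −0.02 over 50 and 0.03 over 46, with 0 calls in each list. Cytokines, chemokines, NF-kB genes and interferon response genes had medians of 0.00, −0.01, 0.04 and 0.02, with 0 calls each. For cytokines and interferon genes the sign of the median changed with total-count scaling, to −0.03 and −0.01, where the median of all genes was −0.03.

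**Figure D5:**
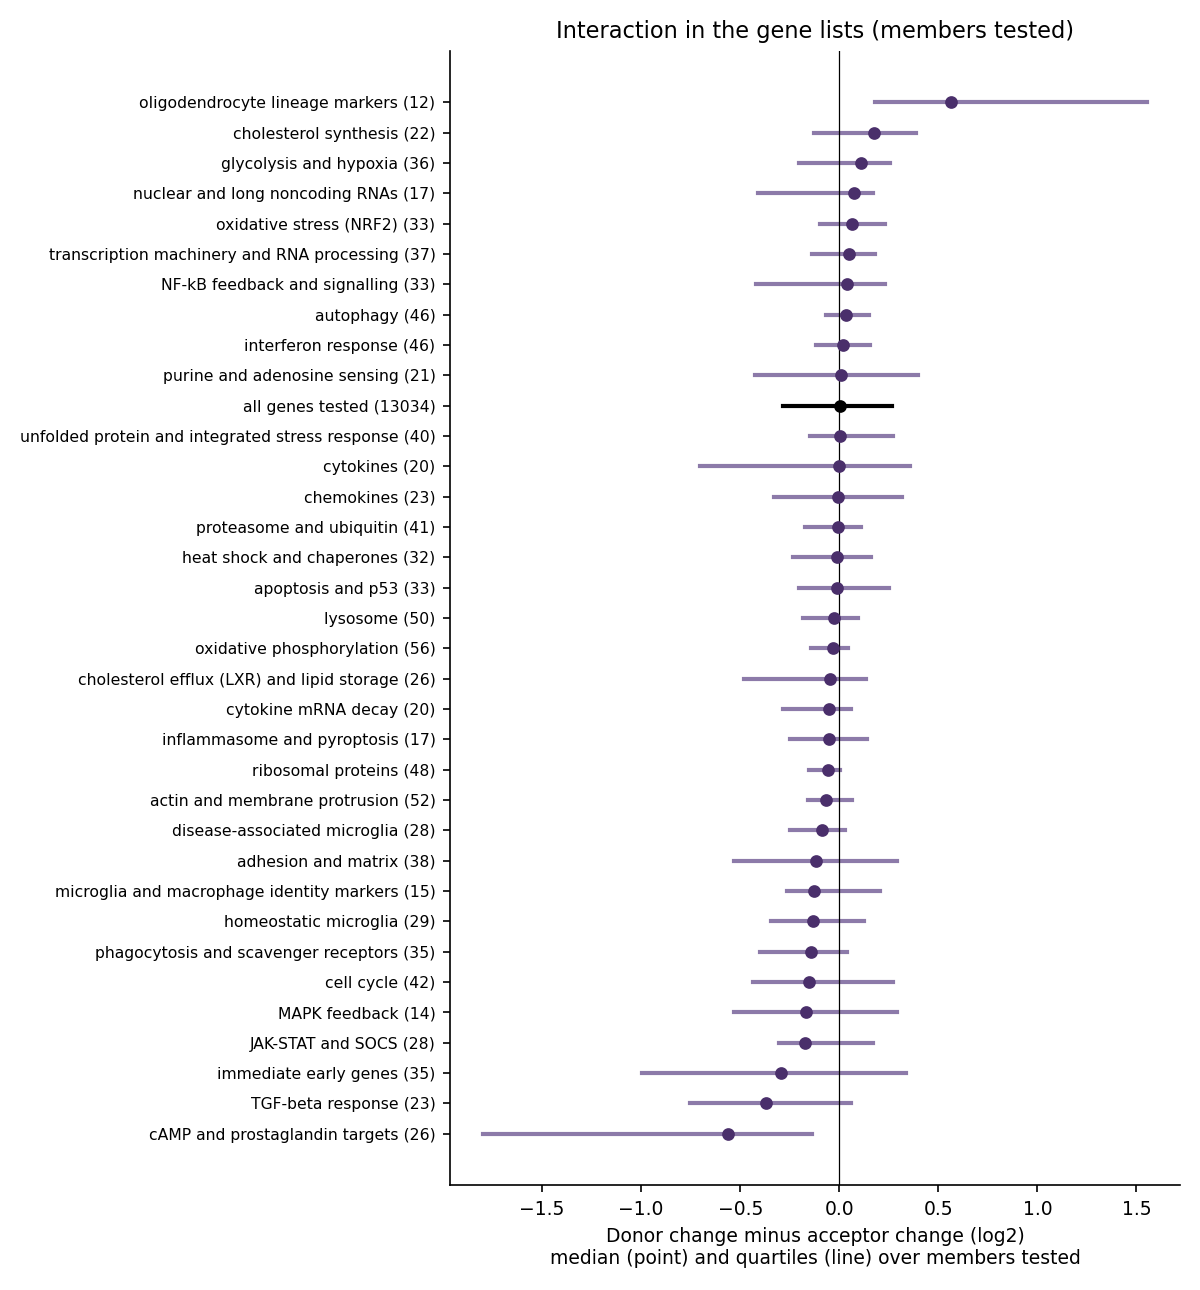
Interaction (donor change minus acceptor change, log2) in each list with at least 10 tested members, as the median (point) and quartiles (line) over members, with all genes tested in black; numbers of members stand beside the names. The cyclic AMP and prostaglandin list is lowest, at −0.56, and the immediate early genes lie at −0.30.

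Among genes named whatever their values, Tnfaip2, which encodes M-Sec, a promoter of membrane nanotubes between cells, had an interaction of 0.05 ± 0.36. It had 177 to 385 CPM in later donor libraries against 239 to 291 CPM, and 109 to 188 CPM in later acceptor libraries against 129 to 206 CPM. Il1b had −1.70 ± 0.82 (unadjusted p = 0.0464, adjusted p = 1.00). Its levels in donors were 489 to 2290 CPM later against 689 to 1830 CPM, and in acceptors 248 to 478 CPM later against 50.9 to 119 CPM. Tnf, the cytokine tumour necrosis factor, had 0.87 ± 0.66. Cx3cr1, the fractalkine receptor of microglia, had 0.95 ± 0.68, with 8.51 to 13.2 CPM in later donor libraries against 5.55 to 8.53 CPM, and 134 to 475 CPM in later acceptor libraries against 138 to 640 CPM. Acceptors of run 3 had 640, 459 and 475 CPM of Cx3cr1 at 0, 60 and 150 min, against 138, 156 and 134 CPM in run 1. Csf1r, the receptor for colony-stimulating factor 1, had 0.17 ± 0.36.

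The 18 libraries held 10271082 to 15451517 reads over 12645 to 13611 genes. TMM factors were 0.834 to 0.911 in donors and 1.10 to 1.18 in acceptors, without overlap. A count of 3 corresponds to 0.184 to 0.333 CPM, a floor that covers counting error only. All 15 microglia markers had reads in all 18 libraries. P2ry12, Tmem119 and Sall1, markers of microglia in the brain, were low, at 0.482 to 4.63 CPM in donors and 1.65 to 8.82 CPM in acceptors. Summed marker levels in donors and acceptors were 3.55 to 9.90 and 9.41 to 18.4 CPM for astrocytes, 36.8 to 81.6 and 84.3 to 166 CPM for the oligodendrocyte lineage, and 0.212 to 5.27 and 0.673 to 10.1 CPM for neurons. They were 13.7 to 20.6 and 0.0866 to 3.44 CPM for fibroblast and vascular cells, and 14.2 to 93.5 and 0 to 0.619 CPM for other immune cells. Few members carried these last sums. In donors Dcn had 0.834 to 10.9 CPM and Pecam1 4.42 to 11.6 CPM, while Col1a1, Col1a2, Col3a1 and Pdgfrb had at most 1.27 CPM. S100a8 had 14.2 to 93.3 CPM in donors, while Cd79a and Ms4a1 had at most 0.385 CPM. Lum, Cldn5, Cd3e, Nkg7, S100a9 and Ly6g are not among the gene symbols. None of these markers was called in the interaction. In acceptors the astrocyte, oligodendrocyte lineage and neuron sums were highest in the run 3 library at each of 0, 60 and 150 min. Its neuron sums were 10.1, 5.98 and 7.02 CPM. The neuron list had a median of 1.85 over 9 members, 1 of them, Rbfox3 at a mean of 0.667 CPM, at an unadjusted p under 0.05, and its part in the results was not tested.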

How the data were processed

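Messenger RNA was read at 3′ ends with the QuantSeq kit in its forward version, per the labels' protocols. Raw counts of reads, deposited for 16144 gene symbols in 39 libraries, were used, beside a table of normalized signal that the authors made from them. Raw and normalized values differ by 1 factor per library, 0.614 to 1.40, and the signal table was used only for this check. STAR, Partek, DESeq2 and the build mm10 stand in the submitters' processing notes with neither version nor role. No source used here states how duplicate reads, shared reads or strand were handled, so genes with close copies or overlaps are uncertain.

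The analysis used edgeR 4.0.16 in R 4.3.3. After its default filter by group, 13034 genes with 99.97% of all reads remained. A quasi-likelihood model with TMM scaling and a mean for each group was fitted to all 39 libraries. The 18 libraries carry the interaction, and the other 21 add degrees of freedom for the spread. Benjamini-Hochberg adjustment ran over all genes, and a gene is called, or said to be higher or lower, at an adjusted p under 0.05. The SE is the size of a log2 value over the root of its F statistic, and so no separate measure of spread. Between libraries the biological coefficient of variation was 0.383. With 3 libraries against 3, an exact permutation test reaches p = 0.10 at best. The fit was run on simulated counts with planted changes. These had less spread between libraries than the data, and no difference between runs or between the populations at the start. They therefore do not test the calls given here.

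The genes named were the called genes and the 10 of lowest p in each direction with a mean of at least 2 CPM over the 18 libraries, the called members or the 2 of lowest p in each list, and Tnfaip2, Cx3cr1, Csf1r, Il1b, Tnf and Fos. Of each list's 2 members of lowest p, those not described have their list's values in the plot of lists. The lists and members were chosen with earlier results of these data known. Replicate numbers follow the order of accession and pair no samples. Runs of library numbers in the titles pair the acceptors by their data: deviations from group means in acceptor libraries of one run had correlations of 0.12 to 0.45 in 9 of 9 pairs. Alternatives were total-count scaling, no filter, the 18 libraries alone, limma voom 3.58.1, DESeq2 1.42.0, a block by run of library numbers, each time alone, the control as baseline and each library left out. No libraries were near-duplicates: chi-square per degree of freedom between libraries of a group was 22.7 to 199. Of the symbols, 96.5% matched GENCODE M21 of GRCm38, which gave gene positions.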

Additional observations from a re-analysis of the deposited data

Results flagged for a closer look

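Donors and acceptors changed differently over the same interval in 2 genes, by edgeR's quasi-likelihood test of the difference itself. At 60 and 150 min pooled the interaction was −2.78 for Vegfa and −3.46 for Cytip on the log2 scale (adjusted p = 0.00878 and 0.0434). It was negative in 3 of 3 runs of library numbers for both, though the genes were chosen on the mean over the same libraries. The call of Cytip was lost without any one of 15 of the 18 libraries, and that of Vegfa without any one of 3. At 60 min alone Vegfa had −2.91 (adjusted p = 0.0409). Cytip had −4.22 at 150 min alone (adjusted p = 0.0364) and −4.40 at 300 min (adjusted p = 0.0212). The 5 values share the libraries at 0 min.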

How the results depend on the processing

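The interaction of Vegfa ranged from −3.05 to −2.39 and that of Cytip from −4.22 to −2.71 over 28 alternatives. No named gene changed sign past the threshold in any of them. Over the named genes, 2547 of the alternative values were called in both fits, or were called in neither and moved by less than the SE. Another 61 were called in neither fit and moved further, 21 lost a call and 3 gained one. For the interaction at 60 and 150 min, limma voom called 1 gene (Cytip), 60 min alone 1 (Vegfa) and 150 min alone 1 (Cytip). For the acceptor change, the fit to the 18 libraries called 4 and DESeq2 7. For the interaction at 60 min limma voom called 0 (edgeR 1), and for that at 150 min DESeq2 called 4 (edgeR 1). For acceptors against the control, limma voom called 5 and DESeq2 12 (edgeR 2). With the control as baseline 2 were called in the interaction.

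Leaving out 1 library in turn gave 0 to 2 called genes for the interaction, with 0 without acceptors at 0 min replicate 2 or 3 or donors at 0 min replicate 3. It gave 0 to 3 for the acceptor change, 0 to 1 for the interaction at 60 min, 0 to 2 at 150 min and 0 to 1 at 300 min. Acceptors against the control gave 2 to 4, donors against acceptors 1992 to 3421 at 0 min and 4470 to 5453 later. The lowest of these, 1992, came without acceptors at 0 min replicate 2. The library with the fewest reads of the series, acceptors at 300 min replicate 2, was left out as well, an alternative chosen after seeing the data. The interaction at 60 and 150 min, in which it has no weight, kept −2.78 for Vegfa and −3.46 for Cytip. Its TMM factor was 0.883, against 1.16 and 1.07 in the other acceptor libraries at 300 min. Its summed microglia markers were 18559 CPM, against 10641 and 9889 CPM. The values given at 300 min include this library. The cause of these differences was not tested.

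The run of library numbers could serve as a replicate block, but the labels do not say what a run is. Deviations of libraries of one run from their group means had correlations from −0.07 to 0.45 over 45 pairs, 28 of them over 0.1, against 4 of 90 pairs from different runs. Over 0.1 were 7 of the 9 pairs within donors and 9 of the 9 within acceptors. By these values the runs pair the acceptor libraries of the acceptor change, while some pairs among the libraries of the interaction had lower values. The main fit used no block for either contrast. Its 2 calls in the acceptor change and 2 in the interaction therefore leave this pairing out. As a hint from the data, 16 of 18 libraries correlated best with their own run. With the replicate block the interaction had 4 called genes, Vegfa, Cytip, Thbs1 and Fosl2 (adjusted p = 9.35e-04, 0.0286, 0.0286 and 0.0499), the acceptor change 9, the interaction at 150 min 2 and acceptors against the control 17.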
